A study of Homo sapiens with 8 samples.

Results

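The extracellular matrix and integrin genes followed here are 45 genes that encode collagens, laminins, other matrix glycoproteins, enzymes and inhibitors that act on the matrix, and cell-surface receptors for it. They were listed by name and located by their RefSeq gene bodies on GRCh38. They are 45 of 19974 protein-coding genes on chromosomes 1 to 22 and X. A gene shorter than 50 kb was measured over a 50 kb window around its centre, which was the case for 13 of the 45 members. The measurement was newly replicated DNA, and no RNA was measured, so nothing below gives the expression of a member.

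The cells were RPE-1 hTERT, an immortal line of human retinal pigment epithelium that carries telomerase, either wild type (WT) or CFAP20-KO. The product of CFAP20 is a conserved cilia protein, and the series title concerns RNA polymerase II in the path of replisomes that move the same way. All cells of both genotypes received EdU at 10 µM for 15 min, which is taken up in place of thymidine as DNA is copied, and no other treatment. After fixation, single cells were sorted into 8 plates that each held WT and CFAP20-KO wells, and the EdU-labelled fragments of each cell were sequenced. Not given in the sources used here is whether CFAP20-KO was 1 clone or whether the plates were grown separately. P-values then measure only how far these plates spread, which may be technical.

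The 8 plates held 26148975 fragments in 3023 wells, with 1746074 to 4181841 fragments per plate. Cells with at least 1000 autosomal molecules were used, 1290 WT and 1140 CFAP20-KO, in 16 libraries (1 genotype on 1 plate) of 751662 to 2478540 molecules. In all, 378 well barcode sequences recurred on several plates, and no full cell name did. These cells were put in order of progress through S phase by correspondence analysis of their labelled bins, whose first axis carried 18.8% of the variation. The timing of a gene is the mean position of the cells labelled in it, weighted by their molecules there, on a scale from 0 (early S phase) to 1 (late S phase). The members held between 31 and 6623 molecules, with a median of 613 over all 16 libraries together.

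Matrix genes encode the scaffold that cells secrete around themselves. Fibrillar collagens form rope-like fibrils, collagen IV and laminins form the sheet of basement membranes, and fibronectin and the fibrillins form fibres on which growth factors are stored. Integrins are paired α and β subunits that hold the cell to this scaffold. Retinal pigment epithelium normally rests on a basement membrane, and cultured RPE-1 cells have a partly mesenchymal character. The genome is copied in a reproducible order, in which gene-rich and active regions tend to be copied early and gene-poor, silent regions late.

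Most matrix and integrin genes were labelled in early S phase. Timing could be measured, with at least 10 molecules in every plate, for 42 of the 45 members and for 16845 genes in all. Of the 42 members, 24 were earlier than the median gene (57.1%, against 50% of all genes measured). The median member lay at 0.226 and the median gene at 0.234. Taken plate by plate, the median of the members minus that of all genes was -0.0125 ± 0.0134 (SD, n = 8), negative in 6 of 8 plates and smaller than the spread between plates. With cells of at least 5000 molecules, where 38 members were measured, it was -0.0474 ± 0.0130, beyond that spread. Members and background genes were both chosen anew for those cells, so this value does not cover the same genes as the one before it. Timing over 0.5 was found for 6 members, and for 20.9% of all genes. The members that were not timed were ITGA3 and COL1A1, with 143 and 139 molecules, and COL3A1, whose window held 31 molecules and which is not analysed further here.

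**Figure D1:**
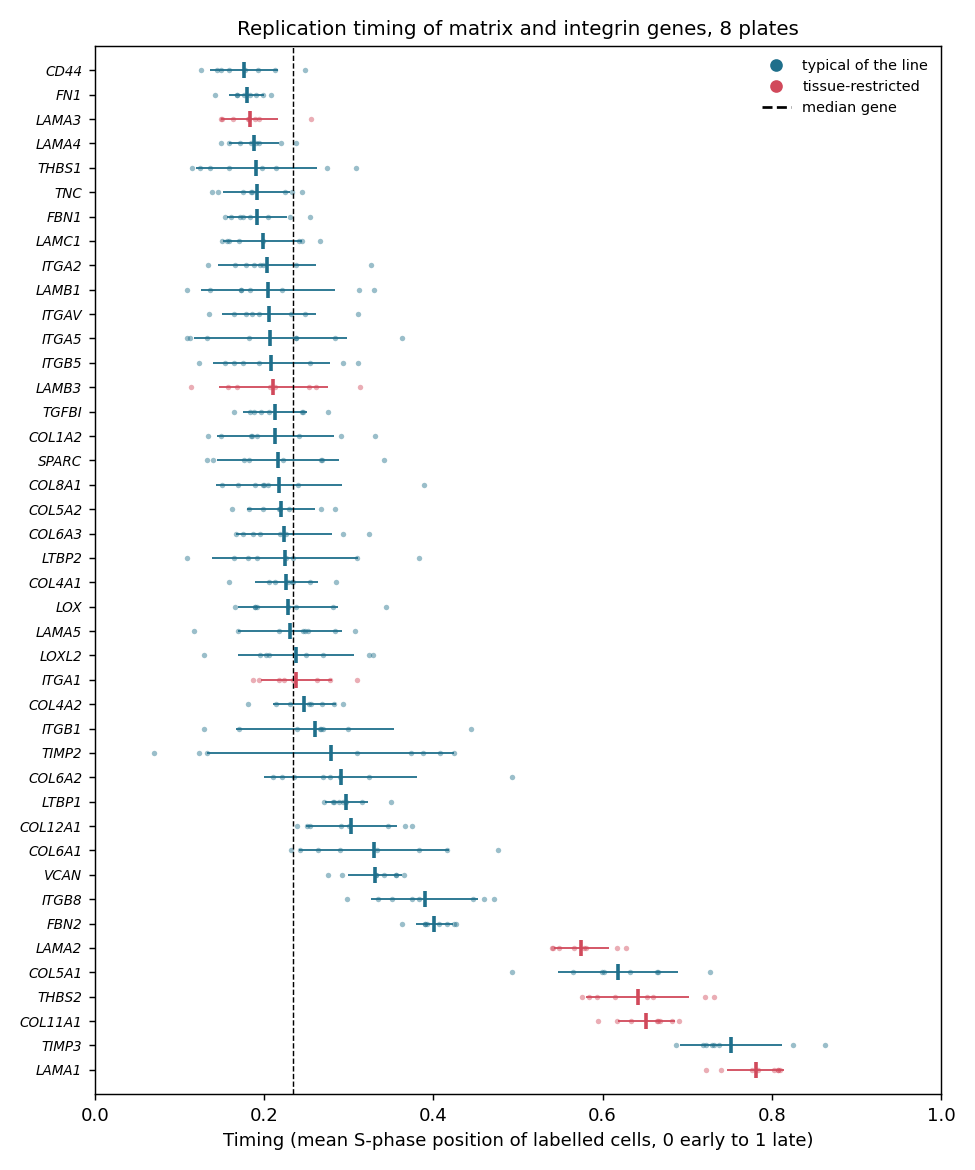
Timing of the 42 members measured (x axis, 0 early to 1 late), each on its own row; points are the 8 plates, and the vertical tick and bar are mean and SD. The dashed line is the median gene at 0.234; 36 members lie below 0.5 and 6 lie above it, with LAMA1 the latest at 0.781.

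Long members were spread over S phase. Members over 200 kb long had a median timing of 0.297 (9 genes), while the 1361 measured genes of that length had a median of 0.436. From 100 to 200 kb the medians were 0.226 for 12 members and 0.246 for all genes. From 50 to 100 kb they were 0.223 for 11 members and 0.226 for all genes. Under 50 kb they were 0.215 for 10 members and 0.227 for all genes. Of the 9 longest members, LAMA3, FBN1 and COL5A2 were earlier than the median gene, and LAMA2, COL5A1 and COL11A1 lay over 0.5.

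The 4 earliest members were CD44, FN1, LAMA3 and LAMA4. CD44, the receptor for hyaluronan, had timings of 0.213, 0.145, 0.149, 0.193, 0.125, 0.158, 0.249 and 0.178 in plates 1 to 8 (mean 0.176 ± 0.0405, SD). FN1, which encodes fibronectin, had 0.183, 0.209, 0.168, 0.168, 0.142, 0.176, 0.199 and 0.190 (0.179 ± 0.0210). FN1 was earlier than the median gene in 8 of 8 plates and CD44 in 7 of 8.

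LAMA3, the α chain of the laminin that anchors stratified epithelia, had 0.150, 0.163, 0.182, 0.180, 0.149, 0.194, 0.190 and 0.255 (0.183 ± 0.0339). LAMA4, a laminin α chain of vessels and mesenchymal tissue, had 0.191, 0.149, 0.194, 0.237, 0.185, 0.171, 0.158 and 0.220 (0.188 ± 0.0297). Both were earlier than the median gene in all 8 plates, and the 4 earliest members overlapped one another throughout.

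The 4 latest members were LAMA1, TIMP3, COL11A1 and THBS2, and in every plate each of them lay above 0.5. LAMA1, the α chain of the laminin of early embryonic basement membranes, had 0.739, 0.803, 0.807, 0.777, 0.783, 0.808, 0.809 and 0.722 (0.781 ± 0.0335). TIMP3, a matrix-bound inhibitor of metalloproteinases that is known as a product of retinal pigment epithelium, had 0.686, 0.731, 0.722, 0.825, 0.718, 0.729, 0.863 and 0.738 (0.752 ± 0.0600). The body of TIMP3 lies within SYN3, so its molecules cannot be told from those of that gene.

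COL11A1, a minor fibrillar collagen of cartilage, had 0.595, 0.690, 0.665, 0.634, 0.617, 0.668, 0.664 and 0.682 (0.652 ± 0.0332). THBS2, a secreted glycoprotein of connective tissue, had 0.659, 0.731, 0.652, 0.575, 0.583, 0.721, 0.594 and 0.614 (0.641 ± 0.0605). The lowest plate value of these 4 genes was 0.575, and the highest of the 4 earliest was 0.255. Both sets were picked as the extremes of these same values, so their separation follows from that choice.

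Terciles of the order express the same timings as molecules, and are not a separate measurement, since timing is the mean position on that order. FN1 received 55.7 ± 14.4 molecules of every 1000000 in early cells and 2.69 ± 0.673 in late cells (SD, n = 8). LAMA1 ran the other way, with 16.5 ± 6.30 in early cells and 121.5 ± 13.3 in late cells. LAMA2 was labelled at all times, with 208.8 ± 25.7 in early and 285.9 ± 51.0 in late cells. Its body is 633 kb long, and the plot of timing along it shows a late first part and an early last part.

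The order of the members is coarse. Of the 41 pairs of neighbours in the order of mean timing, only 2 differed by more than the larger SD of the pair, and the median SD of a member over plates was 0.0574. The ranking among the early members therefore cannot be read gene by gene. The gap that stood out lay between FBN2 at 0.401 ± 0.0215 and LAMA2 at 0.575 ± 0.0329.

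By role, fibrillar collagens held both early and late genes. COL1A2, a chain of type I collagen, was the earliest of the 4 timed at 0.213 ± 0.0689, and COL5A2 lay at 0.220 ± 0.0406. COL5A1 and COL11A1 lay at 0.618 ± 0.0712 and 0.652 ± 0.0332. COL5A1 and COL5A2 encode chains of the same type V collagen, which governs fibril width. COL5A2 lay near the median member and COL5A1 among the late members.

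The other collagens all lay between 0.218 and 0.329, from COL8A1 (0.218 ± 0.0742), a short-chain collagen of basement membranes of the eye and vessels, to COL6A1 (0.329 ± 0.0887), a chain of the beaded-filament type VI collagen. COL4A1 and COL4A2, which encode the chains of the main basement membrane collagen, are transcribed away from each other from starts 126 bases apart. COL4A1 had a timing of 0.226 ± 0.0369 and COL4A2 of 0.247 ± 0.0372. The difference was 0.0211 ± 0.0189, with COL4A2 later in 7 of 8 plates, so the pair was labelled together to within a few hundredths of S phase. The stretch between both starts is shown because it is the upstream sequence of both genes; it lies at chr13:110307158-110307283, plus strand, GRCh38, and holds 20 CpG dinucleotides (capitals) at 80.2% G and C.
COL4A1-COL4A2: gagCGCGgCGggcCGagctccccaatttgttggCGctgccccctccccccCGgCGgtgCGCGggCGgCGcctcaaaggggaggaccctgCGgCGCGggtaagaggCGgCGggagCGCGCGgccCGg

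Most laminin genes were early. The median of the 8 was 0.208, and 6 were earlier than the median gene. LAMA3 was the earliest and LAMA1 the latest. The β and γ chains LAMB1 (0.204 ± 0.0794), LAMB3 (0.211 ± 0.0643) and LAMC1 (0.198 ± 0.0464) were all early. LAMA2, the α chain of muscle and nerve laminin, was the other late laminin.

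Glycoproteins and microfibril genes had a median of 0.216, with 7 of 11 earlier than the median gene, from FN1 to THBS2. FBN1 and FBN2 encode fibrillins, the backbone of microfibrils. FBN1 lay at 0.192 ± 0.0354 and FBN2 at 0.401 ± 0.0215, and their plate values did not overlap, since the highest for FBN1 was 0.254 and the lowest for FBN2 was 0.363. LTBP1 and LTBP2, which encode proteins that bind to microfibrils, lay at 0.297 ± 0.0252 and 0.225 ± 0.0864.

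Among enzymes and inhibitors, LOX, which cross-links collagen and elastin, was the earliest at 0.228 ± 0.0592. LOXL2, a related cross-linking enzyme, lay at 0.238 ± 0.0684. TIMP2 lay at 0.279 ± 0.146, the widest spread of the 42 timed members, and TIMP3 was the latest. The receptors had a median of 0.208 and 5 of 8 were earlier than the median gene. They ranged from CD44 to ITGB8 at 0.390 ± 0.0632, the β subunit that pairs with ITGAV and activates latent TGF-β. ITGAV itself lay at 0.206 ± 0.0555. ITGB1, the subunit shared by most matrix-binding integrins, lay at 0.260 ± 0.0935.

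Members that are typical of a mesenchymal-like epithelial line had an earlier median timing than tissue-restricted ones, which were also longer genes. The split was made from textbook tissue distribution, with 37 typical members and 8 restricted ones (COL3A1, COL11A1, LAMA1, LAMA2, LAMA3, LAMB3, THBS2 and ITGA1). The 35 typical members with a timing had a median of 0.223, and 22 of them were earlier than the median gene. The 7 restricted members with a timing had a median of 0.575, and 2 were earlier. Median gene bodies were 90.8 kb for the 37 typical and 173.7 kb for the 8 restricted members, timed or not. Among all genes, those over 200 kb long were later (median 0.436), while medians of the shorter length classes lay between 0.226 and 0.246. The part of length in this contrast was not tested. Plate by plate, the typical median minus the restricted median was -0.336 ± 0.0516 (SD, n = 8), from -0.435 to -0.268. The typical median was the earlier in 8 of 8 plates. That SD is between plates and does not measure the spread between genes. Typical members ranged from 0.176 to 0.752 and restricted ones from 0.183 to 0.781. With 4 of the 7 restricted members over 0.5, their median of 0.575 is the timing of LAMA2 alone.

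The split was not clean on either side. LAMA3, LAMB3 and ITGA1 are restricted members with timings of 0.183, 0.211 and 0.238, close to the median gene or earlier. COL5A1 and TIMP3 are typical members with timings of 0.618 and 0.752. With every cell given equal weight the difference was -0.154, and with 100 kb windows it was -0.212, in the same direction. The members timed were chosen anew with 100 kb windows, and none of the 42 moved there by more than its SD. With so few restricted members, the size of the difference depends on which of them are timed. Whether these genes are transcribed in these cells was not measured.

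The upstream sequence of the members was examined for CpG dinucleotides, which many widely expressed genes hold in number near their start. The motif searched was CG, which reads the same on both strands, in the 250 bases before the start given in the RefSeq promoter table (GRCh38). An entry was matched for 35 of the 45 members. For LAMA3, LAMA4, FBN1 and ITGB8 that start belongs to a transcript that begins inside the gene body, so the bases counted lie within the body. The 30 matched members earlier than 0.5 had a median of 21 CpG and the 5 later ones had 12. Among all genes matched, the medians were 19 for 10675 genes earlier than 0.5 and 11 for 2826 later genes. At least 10 CpG were found in 80% of both member groups, against 72.9% of all earlier and 54.8% of all later genes. Within the members, CpG number did not follow timing closely: COL6A3, at a timing of 0.223, had 3 and TIMP3, among the latest, had 26.

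The upstream sequences of 2 early members and 2 late members are printed, with CG in capitals, to show that spread. They are CD44 (chr11:35138921-35139170, plus strand, 15 CpG), FN1 (chr2:215436069-215436318, minus strand, 32), COL11A1 (chr1:103108523-103108772, minus strand, 11) and TIMP3 (chr22:32801455-32801704, plus strand, 26).
CD44: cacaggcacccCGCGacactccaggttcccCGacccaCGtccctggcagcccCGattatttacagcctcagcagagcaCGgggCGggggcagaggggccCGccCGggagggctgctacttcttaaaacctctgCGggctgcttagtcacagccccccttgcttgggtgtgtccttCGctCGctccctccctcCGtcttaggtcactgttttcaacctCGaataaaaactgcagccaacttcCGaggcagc
FN1: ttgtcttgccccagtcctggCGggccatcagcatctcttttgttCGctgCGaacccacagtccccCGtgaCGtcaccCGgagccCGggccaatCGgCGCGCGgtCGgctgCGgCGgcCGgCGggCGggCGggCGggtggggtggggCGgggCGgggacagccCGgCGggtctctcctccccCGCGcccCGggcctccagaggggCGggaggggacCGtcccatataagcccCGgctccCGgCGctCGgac
COL11A1: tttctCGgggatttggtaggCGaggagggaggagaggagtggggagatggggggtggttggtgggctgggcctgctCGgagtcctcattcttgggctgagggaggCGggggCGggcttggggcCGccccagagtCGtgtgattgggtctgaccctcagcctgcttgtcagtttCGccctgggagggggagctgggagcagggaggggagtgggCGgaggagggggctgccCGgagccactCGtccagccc
TIMP3: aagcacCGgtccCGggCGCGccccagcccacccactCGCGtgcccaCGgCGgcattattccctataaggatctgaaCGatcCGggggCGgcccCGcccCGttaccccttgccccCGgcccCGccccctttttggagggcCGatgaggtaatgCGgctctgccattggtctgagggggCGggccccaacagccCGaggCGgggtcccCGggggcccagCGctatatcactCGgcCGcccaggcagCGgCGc

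Timing was then compared between genotypes. In CFAP20-KO cells, COL11A1 and ITGB8 were labelled later and COL5A1 and LAMA2 earlier than in WT cells. These were the 4 members called of 25 that could be tested (limma, Benjamini-Hochberg adjusted p under 0.05, at least 10 molecules in every library). Over all 6998 genes tested 18.1% were called, 12.2% earlier and 5.87% later in CFAP20-KO, so 4 of 25 is near the background share. With the plate as a block 16.7% of all genes were called, and the same 4 members. The differences are in units of position after each library was centred on the median of the genes tested. Counts of plates use these centred values, so a plate can go the other way in the timings printed below, which are not centred. Before centring, the median of the 6998 genes tested lay at 0.345 ± 0.0332 in WT libraries and 0.370 ± 0.0406 in CFAP20-KO libraries (SD, n = 8). This is a smaller set than the 16845 genes timed, whose median gene lay at 0.234.

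COL11A1 had WT timings of 0.519, 0.608, 0.571, 0.606, 0.536, 0.627, 0.548 and 0.565 in plates 1 to 8. Its CFAP20-KO timings were 0.698, 0.786, 0.793, 0.683, 0.715, 0.703, 0.784 and 0.763. The genotypes did not overlap. The centred difference was 0.143 ± 0.0258 (SE; limma adjusted p = 0.000545), later in CFAP20-KO in 8 of 8 plates.

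COL5A1 had WT timings of 0.487, 0.681, 0.759, 0.712, 0.648, 0.716, 0.785 and 0.614. Its CFAP20-KO timings were 0.50, 0.635, 0.373, 0.549, 0.575, 0.364, 0.567 and 0.590. The ranges overlapped, with the WT library of plate 1 as low as many CFAP20-KO libraries. The centred difference was -0.181 ± 0.0395 (SE; limma adjusted p = 0.00264), earlier in CFAP20-KO in 8 of 8 plates.

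ITGB8 had WT timings of 0.271, 0.239, 0.334, 0.443, 0.336, 0.294, 0.403 and 0.293. Its CFAP20-KO timings were 0.446, 0.556, 0.428, 0.516, 0.413, 0.542, 0.567 and 0.304. The ranges overlapped, mainly through the low CFAP20-KO library of plate 8. The centred difference was 0.119 ± 0.0320 (SE; limma adjusted p = 0.0122), later in 8 of 8 plates. Without plate 6 it was 0.101 and no longer called (limma adjusted p = 0.0559), and with 100 kb windows it was 0.0870 (limma adjusted p = 0.0665).

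LAMA2 had WT timings of 0.559, 0.624, 0.601, 0.661, 0.535, 0.640, 0.581 and 0.602. Its CFAP20-KO timings were 0.509, 0.633, 0.496, 0.512, 0.550, 0.498, 0.485 and 0.561. The ranges overlapped in the middle, with CFAP20-KO lower in most plates. The centred difference was -0.0954 ± 0.0259 (SE; limma adjusted p = 0.0131), earlier in 7 of 8 plates.

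All 4 calls rest on weighting cells by their molecules. With every cell given the same total weight, the differences kept their signs but shrank to 0.0907 for COL11A1, -0.0994 for COL5A1, 0.0601 for ITGB8 and -0.0303 for LAMA2. None was then called (limma adjusted p = 0.0628, 0.0983, 0.384 and 0.543), and 1.23% of all genes were. The 10 most heavily labelled cells held 13.9% of the WT and 15.8% of the CFAP20-KO molecules of COL11A1, and 23.6% and 19.5% of those of COL5A1. For ITGB8 the shares were 22.7% and 26.1%, and for LAMA2 14.2% and 12.7%. Their part in the result was not tested.

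**Figure D2:**
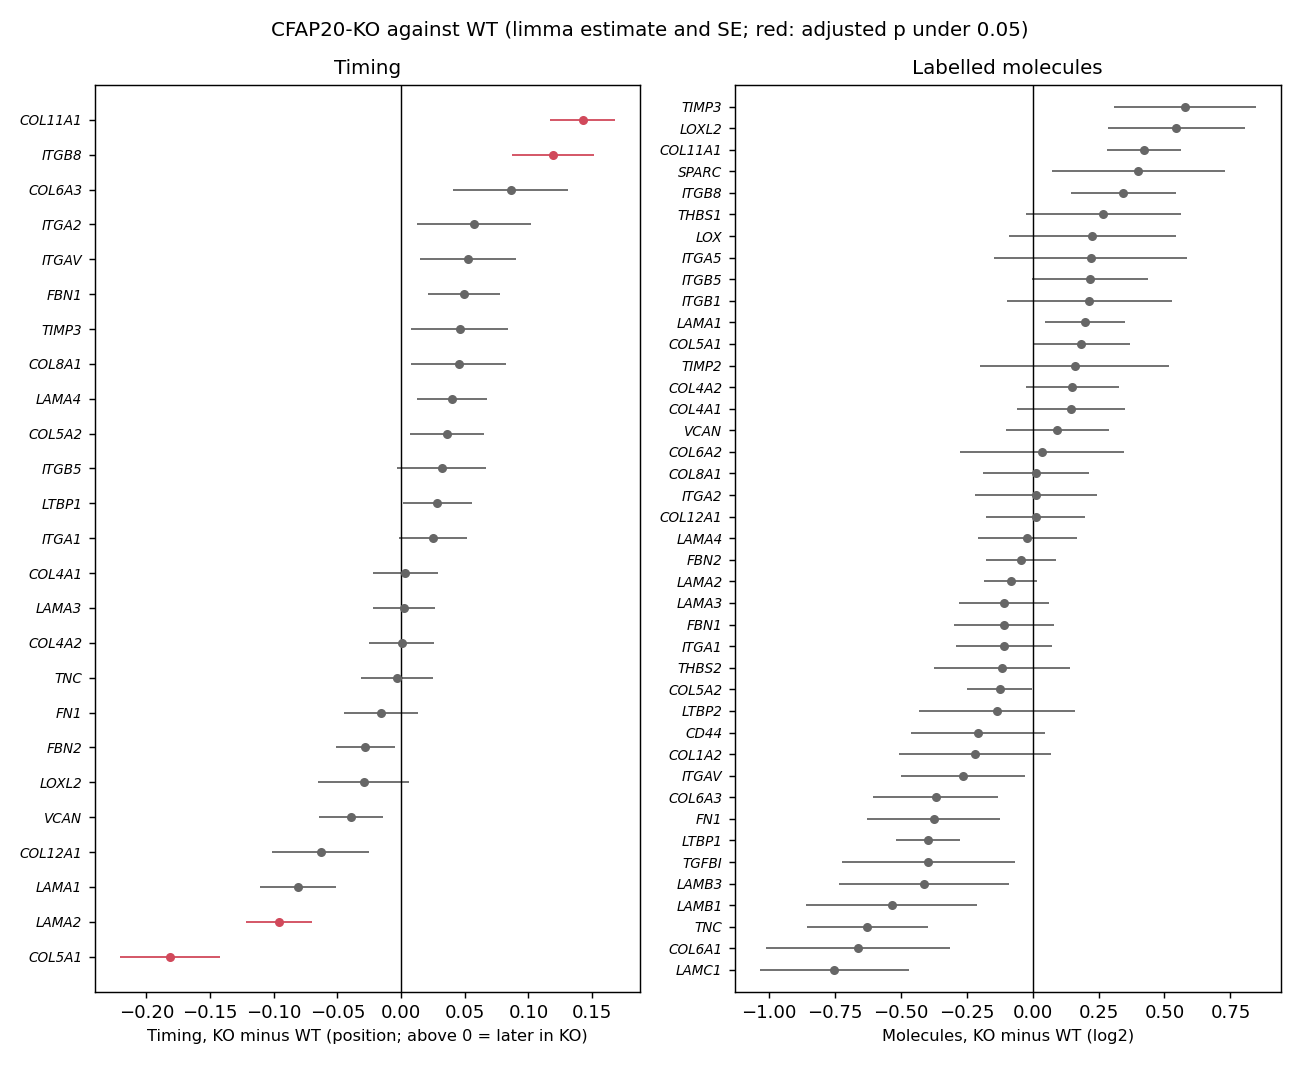
CFAP20-KO minus WT for each member tested, as timing in units of position (left, 25 members) and as labelled molecules on the log2 scale (right, 41 members); points are limma estimates and bars SE. Red marks adjusted p under 0.05: COL11A1, ITGB8, COL5A1 and LAMA2 on the left and no member on the right.

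The direction of COL11A1 was the rarer one for a late gene. Among 2433 genes tested whose timing over both genotypes was above 0.5, 528 were called earlier and 113 later in CFAP20-KO, and their median difference was -0.0312. Among 4565 earlier genes, 326 were called earlier and 298 later, with a median of 0.0149. COL5A1 and LAMA2 moved the way that most called late genes did. LAMA1, the latest member, had a difference of -0.0810 that did not pass (limma adjusted p = 0.0670).

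Along COL11A1 the genotypes differed most in a stretch near the gene's end. In WT cells the timing fell from 0.721 ± 0.0866 at 225 kb below the gene centre to 0.383 ± 0.0665 at 75 kb below it (SD, n = 8), and rose again to 0.694 ± 0.0653 at 25 kb above. In CFAP20-KO cells the same 3 positions had 0.784 ± 0.0522, 0.662 ± 0.0647 and 0.772 ± 0.0526. COL11A1 is transcribed from the minus strand, so this early valley covers the end of the gene and the sequence beyond it. A second stretch, beyond the gene's start, was also later in CFAP20-KO. At 225 kb above the centre it had 0.667 ± 0.123 in WT and 0.818 ± 0.0509 in CFAP20-KO.

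The 100 kb at chr1:102842497-102942496 (GRCh38) were taken as the valley after the profile had been seen, so they are described without a test. The WT timings there were 0.436, 0.271, 0.428, 0.409, 0.364, 0.502, 0.367 and 0.386 in plates 1 to 8, and the CFAP20-KO timings were 0.669, 0.713, 0.644, 0.578, 0.632, 0.606, 0.741 and 0.713. The genotypes did not overlap, with means of 0.395 ± 0.0674 and 0.662 ± 0.0573. Cells of the early tercile gave 54.7% of the WT molecules of the stretch and 18.8% of the CFAP20-KO molecules. The stretch was labelled in 193 WT and 138 CFAP20-KO cells, and 10 cells held 22.7% and 25% of its molecules.

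The other 3 called genes lie on slopes of timing. COL5A1 sits where WT timing rose from 0.255 ± 0.116 at 575 kb below its centre to 0.709 ± 0.0834 at 25 kb above. At 225 kb below, the mean was lower in CFAP20-KO, with 0.348 ± 0.160 where WT had 0.555 ± 0.140. A CFAP20-KO library held as few as 6 molecules at that step, and as few as 2 at 425 kb below. The minimum number of molecules used for genes was not applied to these steps. Whether the rise began at another place in CFAP20-KO was not tested. ITGB8 sits where timing rose from 0.241 ± 0.0912 in WT and 0.334 ± 0.0620 in CFAP20-KO at 75 kb below its centre to 0.585 and 0.653 at 125 kb above. A separate stretch 475 to 325 kb below ITGB8 was also later in CFAP20-KO, with 0.488 ± 0.110 against 0.287 ± 0.0845 at 475 kb below. LAMA2 spans a late block and the slope beyond it. At 75 kb below its centre the timing was 0.752 ± 0.0641 in WT and 0.604 ± 0.0816 in CFAP20-KO. The steps beside it differed less, with 0.754 and 0.694 at 125 kb below and 0.668 and 0.611 at 25 kb below. Positions quoted for these 3 genes were picked after the profiles had been seen. The genotypes differed most at 225 kb below COL5A1, at 475 kb below ITGB8 and, within the body of LAMA2, at 75 kb below its centre.

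**Figure D3:**
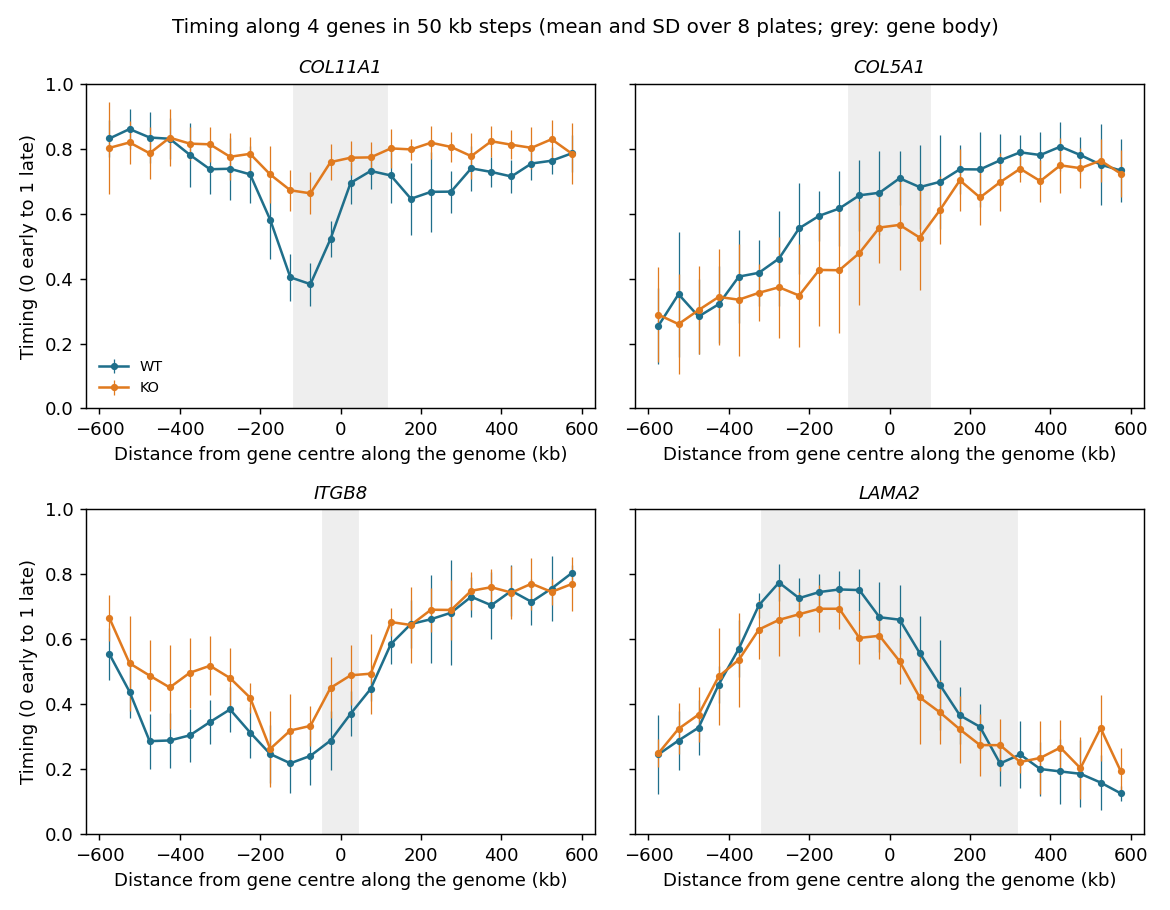
Timing (y axis, 0 early to 1 late) in 50 kb steps against distance from the gene centre along the genome, in kb, for the 4 members called; lines are means of the 8 WT (blue) and 8 CFAP20-KO (orange) libraries and bars are SD. COL11A1 shows a valley reaching 0.383 in WT and 0.662 in CFAP20-KO, while the other 3 genes lie on slopes.

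No member was called for the number of labelled molecules. Of 41 members tested, 0 passed (limma voom, adjusted p under 0.05), and 6 had an unadjusted p under 0.05. Over all 17275 genes tested 1.02% were called, 0.915% fewer and 0.104% more in CFAP20-KO (1.41% with the plate as a block, with 0 members), and 11.5% had an unadjusted p under 0.05. The members' median log2 difference was -0.02, with 21 of 41 below 0. The median gene was at -0.09, with 60.9% below 0, and scaling by median-of-ratios size factors moved that median to 0.01.

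LTBP1, which tethers latent TGF-β to the matrix, had the smallest p among the members. Its WT libraries held 216, 185, 180, 187, 180, 146, 213 and 169 molecules in plates 1 to 8, scaled to 1000000 in each library, and its CFAP20-KO libraries held 161, 131, 169, 146, 157, 133, 83.2 and 151. CFAP20-KO was lower in 8 of 8 plates, although the ranges overlapped. The log2 difference was -0.40 ± 0.12 (SE; limma adjusted p = 0.0963). With only genes of a mean of at least 50 molecules tested, LTBP1 was called (limma adjusted p = 0.0492), and without plate 7 the difference was -0.28 (limma adjusted p = 0.404).

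COL11A1, 1 of the 2 members called later in CFAP20-KO, also had more molecules there in each plate. Its WT libraries held 71.7, 95.7, 78.2, 89.5, 101, 63.1, 83.0 and 100 scaled molecules, with a mean of 85.2 ± 13.7 (SD). Its CFAP20-KO libraries held 88.6, 153, 102, 91.9, 101, 118, 120 and 135, with a mean of 113.7 ± 22.2. CFAP20-KO was the higher in 8 of 8 plates, by 0.42 ± 0.14 on the log2 scale (SE), which did not pass (limma adjusted p = 0.142). The 5 Mb around COL11A1 had 0.16 ± 0.20 (SD, n = 8). Relative to these surroundings COL11A1 was at 0.25 (limma adjusted p = 0.803).

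The members with the largest differences that did not pass were LAMC1 and COL6A1. LAMC1, the γ chain of most laminins, had 35.8, 37.1, 40.4, 20.2, 29.2, 30.4, 32.6 and 27.5 scaled molecules in WT. In CFAP20-KO it had 26.9, 10.7, 28.5, 36.8, 2.71, 29.3, 32.5 and 23.4. The log2 difference of -0.75 ± 0.28 (SE; limma adjusted p = 0.229) leaned on the CFAP20-KO library of plate 5, which held 4 molecules; without plate 5 it was -0.32.

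COL6A1 had 28.8, 14.4, 15.0, 8.61, 19.1, 7.61, 7.66 and 10.0 scaled molecules in WT and 9.50, 7.11, 3.68, 10.7, 12.2, 12.2, 3.82 and 5.85 in CFAP20-KO. The ranges overlapped widely and the log2 difference was -0.66 ± 0.35 (SE; limma adjusted p = 0.465). Its CFAP20-KO libraries held only 4 to 18 molecules each, which limits what could be detected. All 4 enzymes and inhibitors had positive log2 differences, from 0.16 for TIMP2 to 0.58 for TIMP3, and none of them passed.

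Some differences belonged to the wider region as much as to the gene. LAMB1, on chromosome 7, had a log2 difference of -0.53 ± 0.32 (SE), and its surrounding 5 Mb had -0.66 ± 0.16 (SD, n = 8), fewer in CFAP20-KO in 8 of 8 plates. Relative to those surroundings LAMB1 was at 0.13. The surroundings of ITGB1 on chromosome 10 had -0.32 ± 0.32, those of the other members lay between -0.24 and 0.16. LTBP1 differed by -0.41 relative to its surroundings and LAMC1 by -0.64. Over all genes, 2 were called relative to their surroundings (0.0116%), none of them a member.

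**Figure D4:**
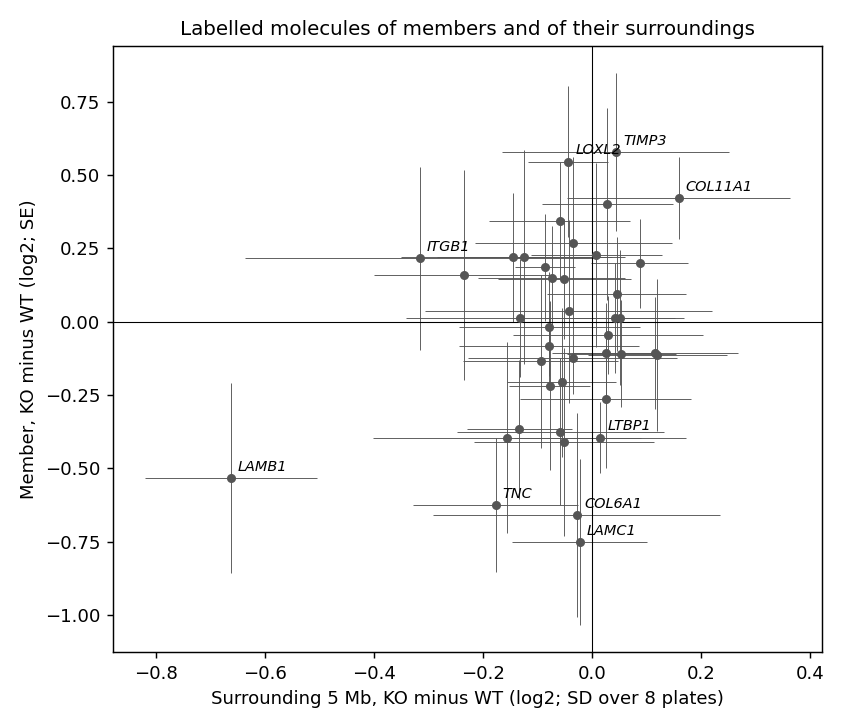
CFAP20-KO minus WT in labelled molecules (log2) for 41 members (y axis, bars SE) against the same difference for the 5 Mb around each (x axis, bars SD over 8 plates). LAMB1 stands alone at the left, at -0.66 for its surroundings, while LAMC1, COL6A1 and LTBP1 lie low with surroundings near 0.

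Against the DNA just beside them, most members were labelled a little less densely. The log2 ratio of molecules per kb in a member over the 250 kb on each side had a median of -0.17, and 5 of 45 members were above 0. Over all genes the median was -0.04, with 41.6% above 0. The lowest ratios among the members timed were those of LTBP2 (-0.81 ± 0.30, SD), LAMB1 (-0.65 ± 0.49) and LAMA5 (-0.61 ± 0.38). LAMA2 (0.40 ± 0.24), LAMA3 (0.23 ± 0.22) and COL6A3 (0.21 ± 0.37) were the highest. How uniquely reads map in each member was not tested.

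The series title concerns replisomes that travel with transcription, so the slope of timing along each gene was described. It is the timing of the 500 kb beyond the gene's end minus that of the 500 kb before its start, for the 35 members whose strand was given. A slope shows which side was copied earlier and does not measure fork direction. The region beyond the end was later by more than 0.1 for 10 members, with ITGB8 (0.335 ± 0.0460, SD, n = 8), COL5A1 (0.325 ± 0.0352) and FN1 (0.267 ± 0.0528) the steepest. The region before the start was later by more than 0.1 for 9 members, with ITGA1 (-0.370 ± 0.0381) and FBN2 (-0.360 ± 0.0416) the steepest. The other 16 were flat or mixed.

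ITGA1 and ITGA2, which encode the α subunits of collagen-binding integrins, lie in the same orientation 30.1 kb apart, and both were later on the start side. Most of their 500 kb sides overlap, so these slopes are not separate measurements. The molecule difference between genotypes had a median log2 of -0.05 in the 10 members with a later end, -0.02 in the 9 with a later start and -0.11 in the 15 flat or mixed members tested. The limit of 0.1 was chosen after the values had been seen.

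**Figure D5:**
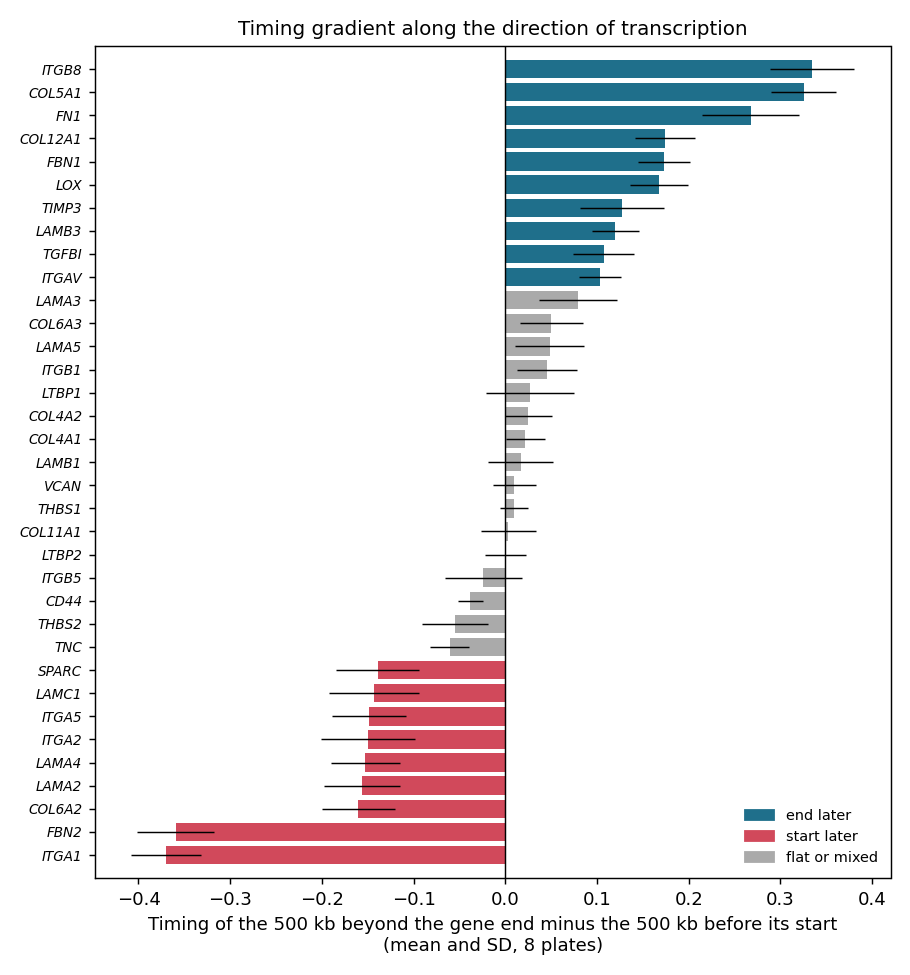
Timing of the 500 kb beyond the gene end minus that of the 500 kb before the start (x axis; positive means that the end side was later), for 35 members; bars are means and whiskers SD over 8 plates. Values run from -0.370 for ITGA1 to 0.335 for ITGB8, with 16 members flat or mixed in grey.

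Other matrix and adhesion genes gave a setting for these values. Of 52 other matrix genes 44 were timed, with a median of 0.268, and 20 preceded the median gene. Earliest were COL2A1, the main cartilage collagen, and LAMB2 (both 0.153), and the latest were COL19A1 (0.765 ± 0.0310) and TNR, a tenascin of the nervous system (0.800 ± 0.0222). COL19A1 (-0.188 ± 0.0284, SE; limma adjusted p = 9.14e-05), FBLN5, an elastic-fibre protein (-0.200 ± 0.0503; 0.00799), and THBS4 (-0.172 ± 0.0498; 0.0193) were called earlier in CFAP20-KO, 3 of 24 tested, and none was called later. Over all genes tested 12.2% were called earlier and 5.87% later, so 3 of 24 is near the background share.

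Of 12 other integrin genes 10 were timed, with a median of 0.194 and 8 earlier than the median gene. ITGB4, the hemidesmosome subunit, and ITGA11 were the earliest at 0.152 ± 0.0876 and 0.182 ± 0.0525. ITGA8 (0.508 ± 0.0546) and ITGA4 (0.588 ± 0.0496) were the latest, and ITGA8 was called earlier in CFAP20-KO, by -0.0856 ± 0.0258 (SE; limma adjusted p = 0.0245). That was 1 call among the 5 genes of this list tested, against 12.2% of all genes called earlier. With equal weight per cell, none of the timing calls in these lists passed (limma adjusted p = 0.0970 for COL19A1, 0.301 for FBLN5, 0.106 for THBS4 and 0.215 for ITGA8).

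Of 12 genes for adhesion proteins inside the cell 11 were timed, with a median of 0.226 and 7 earlier than the median gene. VCL, which encodes vinculin, and PARVA were the earliest at 0.205 ± 0.0554 and 0.207 ± 0.0448, and ILK (0.262 ± 0.0575) and FERMT1 (0.536 ± 0.0547) were the latest. FERMT1, the kindlin of epithelia, was the 1 gene of these lists called for molecules, with a log2 difference of -1.11 ± 0.30 (SE; limma adjusted p = 0.0491) and fewer in CFAP20-KO in 7 of 8 plates. For molecules, 10 genes of this list were tested, and 1.02% of all genes were called. With the plate as a block the FERMT1 difference was -0.94 and not called (limma adjusted p = 0.0739). The 5 Mb around FERMT1 on chromosome 20 had -0.69, and FERMT1 relative to it was at -0.40.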

How the data were processed

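scEdU-seq of RPE-1 hTERT cells was analysed in 8 plates. Per the file headers, each row deposited is 1 fragment with its cell, genomic position, length and genotype, and no counts are held. The submitters' processing notes name GRCh38. Not given in the sources used here: aligner, filters and handling of duplicates. Genotype was read from the files, because titles name WT and CFAP20-KO for each plate and the genotype label names CFAP20-KO alone.

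Each fragment was 1 molecule; 3.24% to 4.60% repeated the cell, position and direction of another. Cells were ordered over 5424 autosomal bins of 500 kb, and the gene-rich end was called early. Sums were taken for every gene in each library. Genes came from RefSeq (GRCh38.p14); 11 member windows also overlap other genes, which share their molecules. Timing per library (centred on its median) and molecules (scaled by the total, mean of at least 10) were fitted with limma 3.58.1 (voom for molecules) in R 4.3.3, with Benjamini-Hochberg adjustment over all genes. A count model was planned only where files held counts. Procedures were tested on simulated data.

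Plates pair the libraries, per the titles. In molecules per gene, the genotypes of a plate deviated together with r from -0.0353 to 0.0968 over genes. The same was not computed for timing. Named with values in every plate were the 4 earliest and 4 latest members, members called by either fit, and the 2 largest uncalled log2 differences; earliest and latest of each role or list were named too. LTBP1 and COL11A1 molecules, and examples within groups, were chosen after their values were seen. The members and lists were chosen with earlier results of these data known. Alternatives covered minimum molecules, weights, bins, windows, scaling, filters, the plate as a block, plates left out and the class split.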

Additional observations from a re-analysis of the deposited data

Results flagged for a closer look

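Of 66 sets of 8 plates examined for the members (timing of 42 members over both genotypes, and timing and molecules of COL11A1, COL5A1, ITGB8, LAMA2, LTBP1 and LAMC1 in each genotype), 4 had 1 plate far from the others, with a gap past Dixon's 95% limit; chance gives about 1 in 20. LAMA3 had a timing of 0.255 in plate 8 against 0.149 to 0.194 in the others, and its mean without plate 8 was 0.173. COL8A1 had 0.389 in plate 8 against 0.15 to 0.240, and 0.193 without it. COL6A2 had 0.493 in plate 7 against 0.210 to 0.325, and 0.261 without it. LTBP1 had 83.2 molecules, scaled to 1000000, in the CFAP20-KO library of plate 7 against 130.9 to 169.4 in the other CFAP20-KO libraries.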

How the results depend on the processing

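The plate as a replicate block changed no call of a member: 4 of 25 were called for timing (1168 of all genes) and 0 of 41 for molecules (244 of all genes; LTBP1 adjusted p = 0.0716). In the other lists it ended the molecule call of FERMT1 (adjusted p = 0.0739) and kept the 4 timing calls. The list's median minus that of all genes was -0.0474 with cells of at least 5000 molecules, and -0.0141 to -0.00978 with 1 plate left out, when 23 to 25 members were earlier than the median gene. Typical minus restricted was -0.268 with cells of at least 5000 molecules, -0.154 with equal weight per cell, -0.212 with 100 kb windows and -0.420 with LAMA3, LAMB3, THBS2 and ITGA1 counted as typical, and -0.345 to -0.322 with 1 plate left out. Members called for timing numbered 0 with equal weight per cell and 3 to 5 with 1 plate left out; for molecules 1 with a mean of at least 50, and 0 to 0 with 1 plate left out. All genes called for timing were 1265, against 86 with equal weight, 2296 with 100 kb windows and 469 with at least 50 molecules in every library. For molecules they were 176, against 398 with 100 kb windows, 100 with median-of-ratios factors, 2 relative to surroundings, and 100, 95, 117 and 113 without plates 1, 2, 5 and 7. Single members' timing moved by over 1 SD for 37 of 42 with equal weight and 15 of 38 with at least 5000 molecules, and for none under the other alternatives. The genes timed were chosen anew under each alternative, so medians of lists and classes need not cover the same genes. The causes were not tested. Short members with under 10 molecules in a library have no timing comparison.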
